A study of Mus musculus with 47 samples.

Results

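The comparison described here is between crypts and villi of the small intestine of mice fed the NWD2 diet. Its members were chosen by their titles: 4 arrays of crypts and 3 arrays of villi, 7 of the 47 arrays of the series, with every probe set of the array considered. All 7 came from wild-type C57BL/6 mice with a labelled age of 1 year that had received NWD2 for 1 year after weaning. The comparison groups on the other diets, which share no array with these, were wild-type C57BL/6 mice of the same age and time on diet. They comprised 4 crypt and 4 villus arrays on NWD1, and 4 crypt and 4 villus arrays on Ain76A, the purified control diet. NWD1 is a purified diet raised in fat and lowered in calcium and vitamin D, and NWD2 is in addition lowered in folate, methionine, choline and vitamin B12. The remaining 24 arrays of the series, from wild-type, Apc1638N/+ and p21-/- mice at 3 months, entered the tests here through the estimate of spread, and the 3-month wild-type arrays also through the choice of genes for the crypt to villus score. The labels do not say whether the arrays came from separate animals, so p-values measure the spread between these samples.

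The epithelium of the small intestine is renewed without pause. Stem cells at the crypt base, kept there by Wnt and Notch signals from Paneth and stromal cells, feed a zone of rapidly dividing progenitors. Their daughters leave the cell cycle, become absorptive enterocytes or goblet, enteroendocrine or tuft cells, climb the villus and are shed at its tip. Paneth cells alone move down to the base, where they secrete lysozyme and defensins. In such tissue samples, fewer cells of a type and less RNA per cell cannot be told apart.

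Expression was read as the deposited log2 signal of each probe set on an Affymetrix mouse array, after quantile normalization, so a difference of 1 is a doubling. Each gene was represented by 1 probe set and tested where at least 3 arrays of each group held a value. A call required an adjusted p under 0.05 (limma, Benjamini-Hochberg over all genes tested). All differences are log2 crypt minus villus ± SE, positive where crypts were higher. Between 20978 and 22837 probe sets were measured on each crypt array and between 21412 and 22111 on each villus array.

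The arrays within each group were not equally far along the crypt to villus axis. A score, the mean of 78 genes higher in crypts minus the mean of 107 genes higher in villi of 3-month wild-type mice, was 2.19, 1.59, 0.98 and 1.45 on NWD2 crypt arrays 1 to 4. It was 0.30, -1.44 and -1.37 on NWD2 villus arrays 1 to 3. On Ain76A the 4 crypt arrays lay between 2.16 and 2.92 and the 4 villus arrays between -2.54 and -1.93. On NWD1 the 4 crypt arrays lay between 1.98 and 2.66, and the 4 villus arrays were at -0.43, -0.47, -1.72 and -2.15. Villus array 1 on NWD2 stood apart from its group: over 8350 probe sets it correlated at r = 0.968 with crypt array 3 and at 0.933 and 0.926 with villus arrays 2 and 3, which correlated with each other at 0.990. Values without it are given below beside the main results that it changed.

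**Figure D1:**
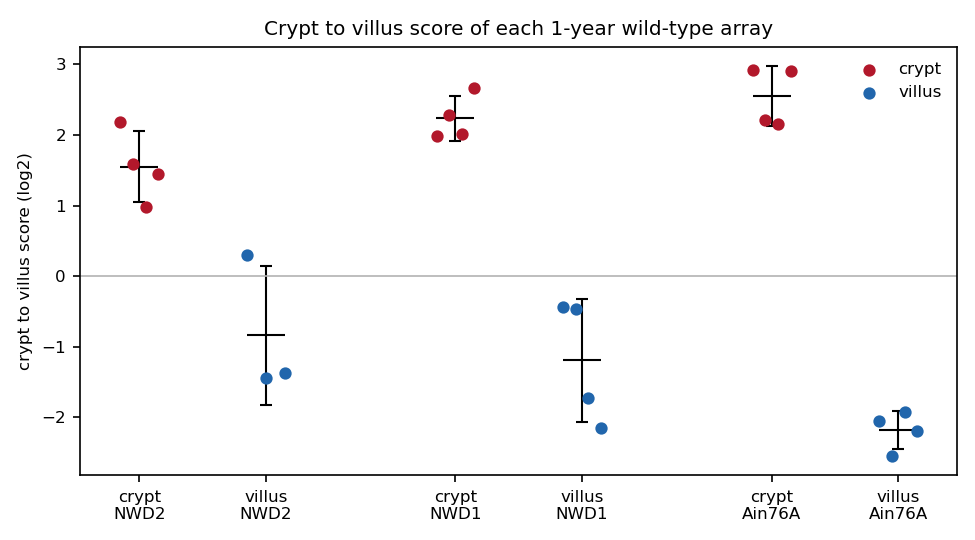
Crypt to villus score (log2, vertical axis) of each 1-year wild-type array, by tissue and diet. Points are arrays, the horizontal bar is the group mean and the whiskers are 1 SD. NWD2 villus array 1, at 0.30, is the one villus array above 0, and NWD2 crypt array 3, at 0.98, is the lowest crypt array.

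Of 8827 genes tested, 670 (7.59%) were higher in crypts and 438 (4.96%) were higher in villi. The median difference over all of them was -0.04. With same-numbered crypt and villus arrays treated as pairs, a replicate block on the 7 arrays alone, 1238 and 1188 genes were called. Crypt array 4 has no villus array of its number. It thus adds nothing to a difference from the replicate block, here and below, which rests on the arrays numbered 1 to 3. The deposited scaling, which moved the median of all genes to 0.08, gave 1002 and 368. Leaving out villus array 1 raised the counts to 976 and 780, while leaving out villus array 2 gave 175 and 82, villus array 3 gave 168 and 63, and crypt array 1 gave 308 and 156. Without crypt array 4, 257 genes were called higher in villi.

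The 4 largest differences toward crypts, in Hspa1b, Dusp1, Egr1 and Ccn1, were in heat shock and immediate early genes, which answer stress and growth signals within minutes. Of 18 tested, 15 were higher in crypts and none in villi, against 7.59% and 4.96% of all genes tested. Their median difference was 1.86, against -0.04 over all genes. Hspa1b, the inducible Hsp70 chaperone, had log2 signals of 14.60, 14.45, 14.62 and 15.13 in crypts, against 8.22, 8.70 and 9.78 in villi. The groups lay far apart, with a difference of 5.80 ± 0.58 (adjusted p = 4.52e-09), a linear ratio of 55.9. Dusp1, a phosphatase that turns off MAP kinases, had 13.08, 13.12, 12.44 and 13.49 in crypts, against 8.06, 9.73 and 9.62 in villi (3.89 ± 0.43). Egr1, a zinc finger transcription factor of the immediate early response, had 13.54, 13.39, 12.43 and 13.56 in crypts, against values between 8.95 and 10.06 in villi (3.56 ± 0.35). In all 3 genes every crypt array lay above every villus array, as in 1300 of all 8827 genes tested. The largest differences were picked among called genes without overlap, so this adds no support. The lowest villus value was that of array 1.

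The AP-1 genes followed the same direction with unequal size. Fosb, an AP-1 subunit, differed by 3.24 ± 0.54, Atf3 by 2.96 ± 0.43, Jun by 2.21 ± 0.43 and Fos by 1.29 ± 0.34. A further probe set of Jun averaged 10.35 in crypts against 10.29 in villi, a difference of 0.06. Fos missed the threshold without villus array 1 (0.65, adjusted p = 0.166), and also with the replicate block (1.19, adjusted p = 0.137) or in a fit on the 7 arrays alone (adjusted p = 0.0819). Nr4a1, an orphan nuclear receptor, differed by 2.89 ± 0.50, and the matrix protein gene Ccn1 by 3.37 ± 0.43. Junb (0.95 ± 0.56), the constitutive chaperone gene Hspa8 (0.46 ± 0.21) and the mRNA decay factor gene Zfp36 (0.86 ± 0.32) did not pass. Zfp36 passed without crypt array 3 (1.02, adjusted p = 0.0341), and a further probe set of Hspa8 differed by 1.47 (adjusted p = 0.00724 where every probe set was tested). On the other diets the whole list had medians of 2.08 on NWD1 and 1.98 on Ain76A. Hspa1b differed there by 4.74 and 3.29, and Dusp1 by 2.78 and 1.80. The difference between NWD2 and Ain76A did not pass for Hspa1b (2.51 ± 0.79, adjusted p = 0.0890) or Dusp1 (2.09 ± 0.59, adjusted p = 0.0603).

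**Figure D2:**
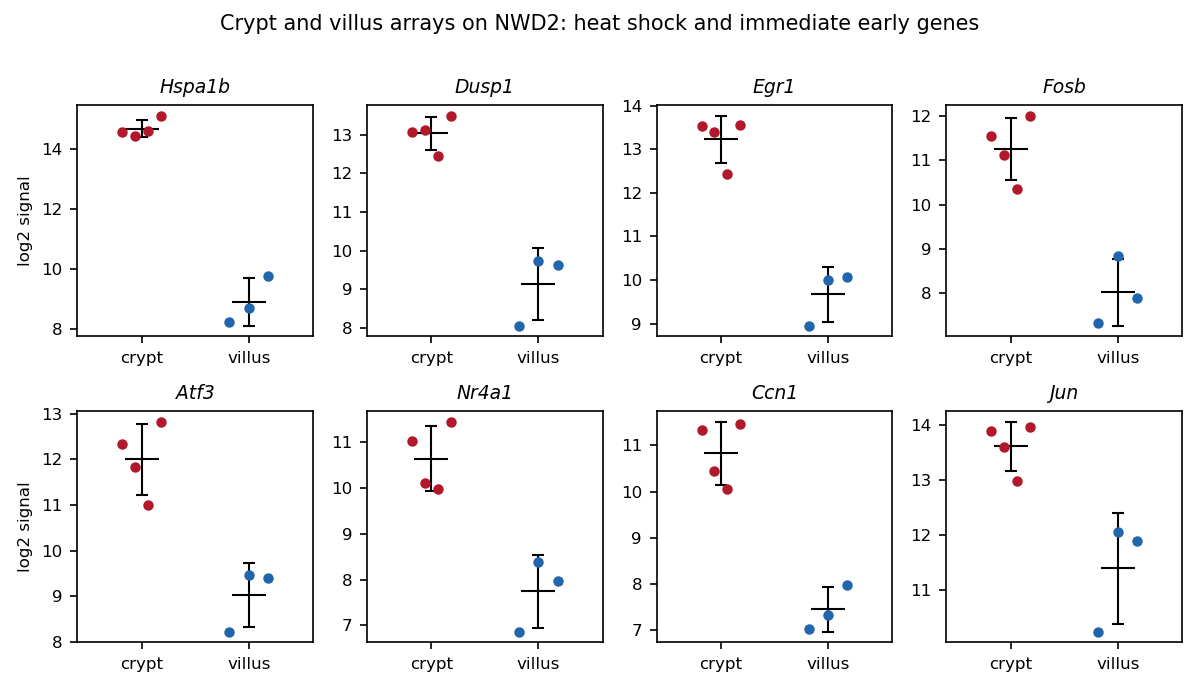
Log2 signal (vertical axis, its range set per gene) of heat shock and immediate early genes on the 4 crypt and 3 villus arrays of NWD2 mice. Points are arrays, the horizontal bar is the mean and the whiskers are 1 SD. All crypt arrays lie above all villus arrays in the 8 genes, as in 16 of the 18 list genes tested and 1300 of all 8827 genes tested. The largest difference of means is in Hspa1b, 5.80 on the log2 scale. Fos, Junb, Hspa8 and Zfp36 are not shown.

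The 250 bases before the annotated start of 2 of these genes are shown because each holds a match to a motif that was searched for (RefSeq, GRCm38.p6, read 5′ to 3′ along the gene's strand). Capitals mark the core of a heat shock element, GAANNTTC, in Hspa1b and a cyclic AMP response element, TGACGTCA, in Dusp1.
Hspa1b (chr17:34959239-34959488, minus strand): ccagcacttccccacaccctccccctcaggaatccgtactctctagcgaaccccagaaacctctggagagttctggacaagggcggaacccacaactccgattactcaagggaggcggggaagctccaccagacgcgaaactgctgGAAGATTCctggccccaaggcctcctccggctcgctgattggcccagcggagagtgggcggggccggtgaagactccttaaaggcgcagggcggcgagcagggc
Dusp1 (chr17:26508473-26508722, minus strand): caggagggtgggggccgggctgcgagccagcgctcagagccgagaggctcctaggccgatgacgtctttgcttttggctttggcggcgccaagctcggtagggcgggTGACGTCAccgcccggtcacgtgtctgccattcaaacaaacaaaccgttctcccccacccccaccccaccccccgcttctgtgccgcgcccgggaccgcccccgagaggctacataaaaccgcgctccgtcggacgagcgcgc
Both strands were searched. Of the 14 tested genes of the list found in the promoter table, 4 held the heat shock core (28.6%), against 7.73% of 27025 genes in that table. The cyclic AMP element was in 1 of them (7.14%), Dusp1 itself, against 1.77%. Fosb, Nr4a1, Atf3 and Jun did not hold it. A further motif searched for, the CArG box, was in 1 of the 14 (7.14%), against 1.62%. It was not found in Dusp1, Fosb, Nr4a1, Fos or Junb. These are matches of letters and not shown binding sites.

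Genes of cell division made up the next group. Of 28 mitosis genes tested, 26 were higher in crypts and none in villi (median 1.91). Of 24 DNA replication genes 17 were higher in crypts and none in villi (median 1.09), against 7.59% and 4.96% of all genes tested. Stmn1, a gene of a microtubule regulator, had between 11.18 and 12.81 in crypts, against 10.76, 8.57 and 9.05 in villi, with a difference of 2.58 ± 0.40. Mki67, the proliferation antigen Ki-67, had 12.07, 11.33, 10.98 and 11.33 in crypts, against 10.74, 8.16 and 8.50 in villi (2.29 ± 0.44). In both genes villus array 1 lay close under the lowest crypt array and the other 2 villus arrays lay well below. Without villus array 1 the difference was 3.23 for Stmn1 and 3.10 for Mki67, and the median of the mitosis list 2.46.

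Cks1b (2.40 ± 0.49) and Cks2 (2.21 ± 0.33), small subunits of cyclin-dependent kinases, and Cdc20 (2.21 ± 0.46), which activates the anaphase-promoting complex, were also higher in crypts. So were the replicative helicase genes Mcm5 (2.33 ± 0.38) and Mcm4 (2.04 ± 0.44), the primase gene Prim1 (1.97 ± 0.38) and the ribonucleotide reductase gene Rrm2 (2.10 ± 0.50). Pcna, the sliding clamp, differed by 0.83 ± 0.22. Rrm2 and Pcna missed the threshold without villus array 2 (adjusted p = 0.0840 and 0.0839) or villus array 3 (adjusted p = 0.0806 and 0.0657). Without either of these arrays 8 replication genes were called. Of 51 mitosis genes on the array 28 had enough values to be tested. With blanks set to the 1st percentile of their array 46 of 48 were called higher in crypts. That setting admits genes with at least 3 values in either tissue and gives their blanks a low value. The direction of an added gene can thus follow from which tissue held its blanks, so this count adds no support.

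Of 17 regulators of entry into the cycle, 4 were higher in crypts and 2 in villi, with a median of -0.12, where 7.59% and 4.96% of all genes tested were. With the replicate block 6 and 4 were called, and the median was 0.04 under the deposited scaling. The D-type cyclin genes Ccnd1 (1.76 ± 0.44) and Ccnd2 (1.45 ± 0.35) and their partner kinase gene Cdk4 (1.20 ± 0.34) were higher in crypts. E2f3, a transcription factor of the Rb pathway, was higher in villi (-1.11 ± 0.23), as was the pocket protein gene Rbl2 (-0.85 ± 0.26). Ccnd1, Ccnd2, Cdk4 and Rbl2 missed the threshold without villus array 2 or without villus array 3, where the adjusted p reached 0.102 for Ccnd1, 0.0761 for Ccnd2, 0.164 for Cdk4 and 0.235 for Rbl2. Without crypt array 1, Ccnd1 (adjusted p = 0.0546), Cdk4 (0.0763) and Rbl2 (0.0813) also missed it, as did Rbl2 without crypt array 4 (0.105). E2f3 missed it with blanks set to the 1st percentile (adjusted p = 0.0917), and Rbl2 in a fit on the 7 arrays alone (0.0538). Cdkn1a, which encodes the cell cycle inhibitor p21, had 11.65, 11.72, 11.75 and 12.24 in crypts, against 12.23, 12.56 and 12.39 in villi (-0.55 ± 0.27, adjusted p = 0.178), and with the replicate block it was called higher in villi (-0.68, adjusted p = 0.0139).

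Promoters of 2 mitotic genes are shown because the CHR motif, TTTGAA, is the element through which such genes are held silent outside the cycle. The 250 bases before the start come from the same table, with CHR matches on either strand in capitals.
Cdc20 (chr4:118437344-118437593, minus strand): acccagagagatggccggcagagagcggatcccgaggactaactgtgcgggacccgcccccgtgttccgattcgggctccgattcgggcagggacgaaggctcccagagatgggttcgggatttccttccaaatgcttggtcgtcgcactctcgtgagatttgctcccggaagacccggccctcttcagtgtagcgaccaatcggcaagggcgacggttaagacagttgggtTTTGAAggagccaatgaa
Mki67 (chr7:135716380-135716629, minus strand): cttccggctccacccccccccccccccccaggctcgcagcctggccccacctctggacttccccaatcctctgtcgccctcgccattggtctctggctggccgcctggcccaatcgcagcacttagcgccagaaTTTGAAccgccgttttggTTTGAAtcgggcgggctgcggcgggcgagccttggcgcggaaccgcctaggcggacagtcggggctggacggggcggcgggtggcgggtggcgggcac
The motif was found in 13 of the 25 tested mitosis genes with a promoter entry (52%), against 4934 of all 27025 genes. The CCAAT box, CCAAT, was found in 18 of the 25 (72%), against 37.5%.

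Genes of ribosome production were also higher in crypts. Of 26 ribosome biogenesis genes, 15 were higher in crypts and none in villi (median 1.09), against 7.59% and 4.96% of all genes tested. With the replicate block 23 were higher in crypts. Nop56, a core protein of the box C/D particles that modify ribosomal RNA, had 11.66, 10.61, 9.97 and 11.08 in crypts, against 9.23, 7.72 and 7.60 in villi (2.65 ± 0.39). The groups did not overlap. Nolc1, a nucleolar phosphoprotein, differed by 1.77 ± 0.36 and Gnl3, nucleostemin, by 1.59 ± 0.30. Of 20 ribosomal protein genes, 19 were higher in crypts (median 1.13), among them Rpsa (1.72 ± 0.35) and Rps18 (1.67 ± 0.32). These counts leaned on villus arrays 2 and 3: without array 2, 7 biogenesis and 5 ribosomal protein genes were called, and without array 3, 7 and 4.

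The tissue labels were checked against markers of the crypt base, of Paneth cells and of villi. Of the villus markers, described further below, Krt20 and Ada were higher in villi. Alpi, Lct, Fabp1, Apoa4 and Slc5a1 did not pass, and Sis could not be tested. Of 15 crypt base genes 10 were higher in crypts and none in villi (median 1.23), against 7.59% and 4.96% of all genes tested. Lgr5, the receptor that marks the columnar stem cells, had 8.48, 8.54, 7.93 and 8.43 in crypts, against 7.22, 7.04 and 7.47 in villi (1.10 ± 0.33, adjusted p = 0.0276). No villus array reached the lowest crypt array, but the call was lost without crypt array 1 (adjusted p = 0.0874), 2 (0.0643) or 4 (0.0654), or without villus array 2 (0.154) or 3 (0.0828), and with blanks set to the 1st percentile (0.176). Olfm4, a secreted glycoprotein of the same cells, had 14.84, 14.60, 13.77 and 14.07 in crypts, against 13.11, 10.74 and 11.38 in villi (2.58 ± 0.56). It missed the threshold without villus array 2 (adjusted p = 0.0564). The water channel gene Aqp4 (2.19 ± 0.42) was also higher in crypts, where a further probe set differed by 0.29. The list's count was 5 without crypt array 1, 1 without villus array 2 and 3 without villus array 3. Hopx (0.46) and Bmi1 (0.11, and -0.25 for a further probe set), proposed markers of reserve stem cells, did not pass.

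Among 11 Paneth cell genes, 5 were higher in crypts and none in villi (median 1.23), against 7.59% and 4.96% of all genes tested. Lyz1, lysozyme, had 15.96, 15.86, 15.56 and 15.69 in crypts, against 13.62, 13.23 and 13.09 in villi (2.46 ± 0.44), and 2 further probe sets differed by 2.72 and 0.84. The defensin gene Defa39 had 14.97, 14.67, 14.05 and 14.48 in crypts, against 12.48, 11.77 and 11.47 in villi (2.64 ± 0.53). Every crypt array lay above every villus array in both genes, as in 1300 of all 8827 genes tested. The families of both genes hold near-identical copies that a probe set may not separate. Ang4, an antimicrobial ribonuclease, differed by 2.70 ± 0.58 and Itln1, a lectin, by 2.60 ± 0.55. Clps, a colipase gene on the same list, differed by 1.00 ± 0.49 and did not pass, but was called with the replicate block (1.08, adjusted p = 0.0462).

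Of 16 genes of Wnt signalling outside the stem cell markers, 1 was higher in crypts and 1 in villi (median -0.24), shares near those over all genes tested. The replicate block called 1 and 4, and without villus array 1 none and 4 were called (median -0.43). Axin2, a feedback target of Wnt, had 9.53, 9.47, 9.51 and 9.56 in crypts, against 9.25, 9.48 and 9.89 in villi (-0.02 ± 0.42, adjusted p = 0.982). Apc, the tumour suppressor that limits beta-catenin, had 10.12, 10.15, 10.23 and 9.76 in crypts, against 10.38, 10.63 and 10.92 in villi (-0.58 ± 0.21, adjusted p = 0.0633). Apc was called higher in villi with the replicate block (-0.47, adjusted p = 0.0461), with median centring (-0.59, 0.0455) and without villus array 1 (-0.71, 0.0304). The groups did not overlap in Apc, while those of Axin2 did. The Wnt receptor gene Fzd5 differed by 0.36 ± 0.37 and did not pass. Ctnnb1, beta-catenin itself, was slightly higher in villi (-0.54 ± 0.17, adjusted p = 0.0303), a call lost under the deposited scaling (-0.20, adjusted p = 0.565), with median centring (-0.22, adjusted p = 0.486) and with the replicate block (-0.48, adjusted p = 0.0660). It was lost too without crypt array 1 (adjusted p = 0.0948) or 4 (0.105), or villus array 2 (0.236) or 3 (0.147). Hes1, a Notch target, differed by 0.89 ± 0.34 (adjusted p = 0.0724). It was called higher in crypts with the replicate block (0.79, adjusted p = 0.0191), under the deposited scaling (1.10, 0.0193), with median centring (1.08, 0.0207), in a fit on the 7 arrays alone (0.0323) and without villus array 1 (1.07, 0.0415).

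Of 17 goblet cell genes tested, 9 were higher in villi and 2 in crypts, against 4.96% and 7.59% of all genes tested. The median was -0.78, and -0.42 under the deposited scaling. Muc2, the gel-forming mucin, had 13.20, 12.09, 11.74 and 13.05 in crypts, against 14.94, 15.01 and 14.99 in villi (-2.46 ± 0.31, adjusted p = 9.78e-07). Clca1, a secreted mucus protease, had 11.55, 10.54, 10.78 and 12.37 in crypts, against 14.49, 14.61 and 14.54 in villi (-3.24 ± 0.41), and a further probe set differed by -1.50. The 3 villus arrays, array 1 included, lay close together in both genes, and the crypt arrays were spread more widely below them. Fcgbp (-1.90 ± 0.29) and Tff3 (-1.41 ± 0.25), further mucus components, were higher in villi too. The call of Tff3 was lost under the deposited scaling (-0.84, adjusted p = 0.0694) and with arrays centred on their median (-0.86, adjusted p = 0.0968). The 2 members higher in crypts were Ang4, which Paneth cells also make, and the chemokine gene Ccl9 (1.43 ± 0.45), whose call was lost without crypt array 1 (adjusted p = 0.0912) or 4 (0.0781), or villus array 2 (0.158) or 3 (0.186). On Ain76A the same differences were -2.34 for Muc2 and -3.30 for Clca1.

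Of 8 tuft cell markers 2 were higher in villi and none in crypts, where 4.96% and 7.59% of all genes tested were, and the replicate block called 4 higher in villi. Dclk1, the kinase that marks tuft cells, had 6.41, 6.64, 7.19 and 7.29 in crypts, against values between 8.82 and 9.21 in villi (-2.13 ± 0.42). Rgs13, a regulator of G proteins, differed by -1.98 ± 0.50 and missed the threshold without villus array 3 (adjusted p = 0.0640). Of 19 enteroendocrine genes 2 were higher in crypts and 2 in villi, shares not far from those over all genes, and the replicate block called 4 and 4. Gcg, the precursor of glucagon-like peptides, had 11.83, 11.43, 11.34 and 11.82 in crypts, against 10.30, 9.28 and 9.59 in villi (1.88 ± 0.45). Nts, neurotensin, had 8.67, 9.02, 9.41 and 9.50 in crypts, against 9.73, 12.97 and 13.65 in villi (-2.96 ± 0.75). Villus array 1 lay near the crypts in Nts. Gcg missed the threshold without villus array 2 (adjusted p = 0.0608), as did Nts (0.0889), and Nts also without villus array 3 (0.146). Chga, chromogranin A, differed by 1.06 ± 0.50 and did not pass, but was called with the replicate block (1.04, adjusted p = 0.0324) and in a fit on the 7 arrays alone (0.0380).

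**Figure D3:**
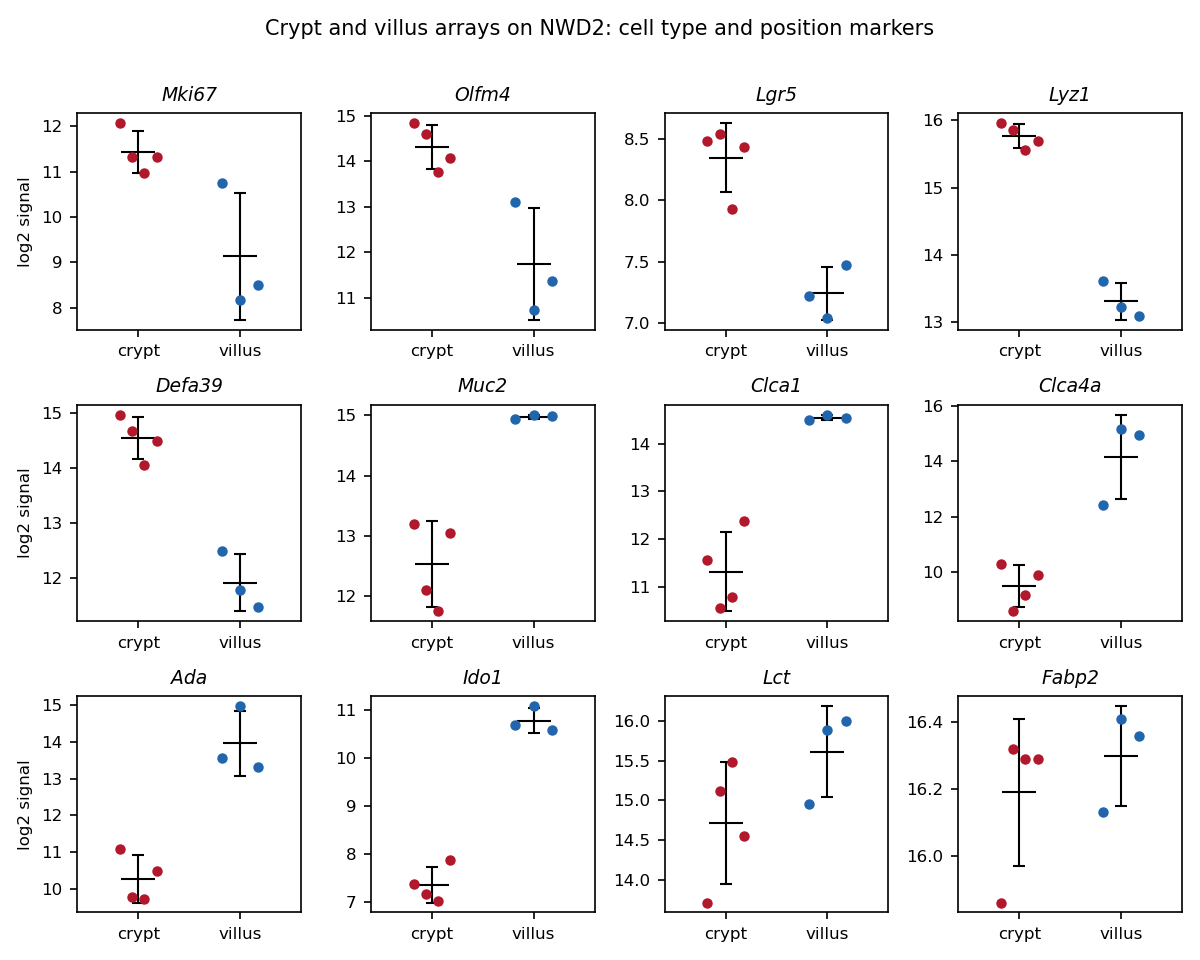
Log2 signal (vertical axis, its range set per gene) of markers of division, crypt base, Paneth, goblet and villus cells on the 4 crypt and 3 villus arrays of NWD2 mice. Points are arrays, the bar is the mean and the whiskers are 1 SD. Villus array 1, the leftmost villus point, lies between the groups in Mki67, Olfm4 and Clca4a but with the other villus arrays in Muc2, Clca1 and Ido1.

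Of the 4 largest differences toward villi 3, in Clca4a, Ada and Ido1, were in genes of the upper villus, and the other was in Pmp22. Of 18 villus tip genes, 8 were higher in villi and 3 in crypts (median -0.89), against 4.96% and 7.59% of all genes tested. The 3 were Fos, Jun and Atf3, the immediate early genes described above. Clca4a, of a family of chloride channel regulators, had 10.28, 8.59, 9.17 and 9.91 in crypts, against 12.43, 15.16 and 14.94 in villi (-4.69 ± 0.69, adjusted p = 2.14e-05), a linear ratio of 25.8 toward villi. Ada, adenosine deaminase, had 11.08, 9.79, 9.72 and 10.48 in crypts, against 13.57, 14.98 and 13.33 in villi (-3.70 ± 0.55). Ido1, which degrades tryptophan, had 7.38, 7.16, 7.03 and 7.87 in crypts, against 10.68, 11.08 and 10.57 in villi (-3.42 ± 0.48). The groups were separate in all 3 genes, as in 1354 of all 8827 genes tested toward villi. The largest differences were picked among called genes without overlap, so this adds no support. Enpp3 (-3.03 ± 0.52) and Nt5e (-2.72 ± 0.59), ectoenzymes of nucleotide breakdown, were also higher in villi. Nt5e was blank on crypt array 2, so its fit used the other 6 arrays, and its call was lost without villus array 2, at a difference of -2.24.

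Krt20, the keratin of differentiated enterocytes, had 13.84, 14.13, 14.44 and 13.97 in crypts, against 14.92, 15.52 and 15.32 in villi (-1.16 ± 0.21), and Klf4, a transcription factor of cell cycle exit, differed by -1.56 ± 0.33. Krt20 missed the threshold under the deposited scaling (-0.71, adjusted p = 0.0779) and with median centring (-0.73, adjusted p = 0.0820). Outside the lists, Pmp22, a tetraspan membrane protein gene, had 8.34, 7.16, 7.95 and 8.61 in crypts, against 9.32, 13.76 and 13.50 in villi (-4.18 ± 0.80). Villus array 1 again lay near the crypts, and without it the difference was -5.62. Fer1l6, a ferlin family gene, had 7.45, 7.15, 7.01 and 7.08 in crypts, against 9.63, 9.90 and 9.86 in villi (-2.63 ± 0.35), with all 3 villus arrays close together.

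The absorptive machinery of enterocytes was described by 4 lists, to be read against the 4.96% of all genes that were higher in villi. None of 27 genes of fat absorption was called in either direction (median -0.48), and 1 of 12 brush border peptidase genes was higher in villi (median -0.81). Of 28 nutrient transporters, 3 were higher in villi and 1 in crypts (median -0.62), and of 6 disaccharidase and phosphatase genes 1 was higher in villi (median -0.93). At an adjusted p under 0.05 the replicate block called 10 of the fat absorption, 8 of the peptidase, 7 of the transporter and 3 of the disaccharidase genes higher in villi. Without villus array 1 these counts were 4, 5, 6 and 1, and the peptidase median was -1.23. Under the deposited scaling they were 0, 0, 1 and 0, and the disaccharidase median was -0.57. Without crypt array 3, 2 fat absorption and 7 transporter genes were called, and without villus array 2 or villus array 3 none of either list or of the peptidases was called higher in villi. Without crypt array 1 or crypt array 4, 1 transporter and no peptidase gene was.

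Lct, lactase, had 13.71, 15.12, 15.48 and 14.55 in crypts, against 14.95 and 15.89 on villus arrays 1 and 2 and 16 on villus array 3 (-0.90 ± 0.46, adjusted p = 0.200). With the replicate block it was called higher in villi (-0.85, adjusted p = 0.0321). Alpi, intestinal alkaline phosphatase, had 14.10, 15.27, 15.50 and 14.97 in crypts, against 15.75, 15.77 and 15.66 in villi (-0.77 ± 0.33, adjusted p = 0.124). The crypt arrays were ordered alike in both genes, with array 1 lowest and array 3 highest, and Lct overlapped between the groups. Slc5a1, the sodium glucose cotransporter, had 13.82, 14.81, 15.55 and 14.68 in crypts, against 15.45, 15.29 and 15.68 in villi (-0.76 ± 0.32), and was called without crypt array 3 (-1.04, adjusted p = 0.0228) or through a further probe set (-1.17, 0.0409). Apoa4, an apolipoprotein of chylomicrons, differed by -0.34 ± 0.35. Fabp1, a fatty acid binding protein, had 16.71, 16.41, 16.47 and 16.53 in crypts, against 16.41, 16.47 and 16.47 in villi, where 16.71 was the highest signal of any probe set on these arrays. The mean log2 signal of the 27 fat absorption genes was 12.65, 13.43, 13.66 and 13.32 in crypts, against 13.36, 13.97 and 13.87 in villi. Crypt array 3 thus exceeded villus array 1 in that mean.

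The 3 transporter genes higher in villi were Slc34a2, Slc6a19 and Slc3a1. Slc34a2, a sodium phosphate cotransporter, had 9.25, 9.85, 9.82 and 9.44 in crypts, against 10.03, 13.14 and 13.35 in villi (-2.58 ± 0.59). It missed the threshold without villus array 2 (adjusted p = 0.0683) or 3 (0.0845). Slc6a19, a neutral amino acid transporter (-1.65 ± 0.53), and Slc3a1, a subunit of a carrier of basic amino acids (-0.79 ± 0.27), overlapped between the groups. Both lost their call without crypt array 1 or 4 or villus array 2 or 3, where the adjusted p reached 0.309 and 0.333. Both also lost it under the deposited scaling (adjusted p = 0.0602 and 0.0862) and in a fit on the 7 arrays alone (0.0564 and 0.0809), and Slc3a1 without crypt array 2 (0.0608) and with median centring (0.0529). Slc1a1, a glutamate transporter gene, was higher in crypts (1.32 ± 0.33), and lost its call without villus array 2 (adjusted p = 0.0745) or 3 (0.0757). Npc1l1, which takes up cholesterol, was higher in villi (-1.29 ± 0.32) and lost its call in the same way (0.0845 and 0.119).

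Of 24 microvillus and tight junction genes, 8 were higher in villi and 1 in crypts (median -0.42), against 4.96% and 7.59% of all genes tested. Ezr, ezrin, which ties actin to the membrane, had 12.97, 13.16, 13.33 and 13.17 in crypts, against 13.64, 14.40 and 14.57 in villi (-1.04 ± 0.23). Eps8, an actin bundler of the microvillus tip, differed by -1.05 ± 0.23. Ezr missed the threshold without villus array 3 (adjusted p = 0.0609), and the list's count was 4 without crypt array 1, 3 without villus array 2, 1 without villus array 3 and 4 under the deposited scaling. Cldn23, a claudin, was the member higher in crypts (0.98 ± 0.30). The call of Cldn23 was lost without crypt array 1 (adjusted p = 0.0921) or 4 (0.117), or villus array 2 (0.103) or 3 (0.108). Among 17 intestinal transcription factors 4 were higher in villi and none in crypts, to be read against the same shares over all genes. Maf differed by -1.39 ± 0.30, while Cdx2, the intestinal identity factor, did not pass (0.07 ± 0.29).

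Interferon response genes were higher in villi in 8 of 23 cases and higher in crypts in none, against 4.96% and 7.59% of all genes tested. Their median was -0.74. Oasl2, an oligoadenylate synthetase-like gene, had 8.24, 8.96, 9.65 and 8.79 in crypts, against 10.26, 10.93 and 11.41 in villi (-1.96 ± 0.38). Ifit1, which binds viral RNA, had 7.07, 8.08, 9.02 and 8.16 in crypts, against 10.11, 10.47 and 10.36 in villi (-2.23 ± 0.48). In both, crypt array 1 was lowest and crypt array 3 highest, without reaching the villi. With the replicate block 14 were called, without crypt array 1 the count was 5, without villus array 2 it was 4 and without villus array 3 it was 3.

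Genes of lymphocytes, myeloid cells and stroma were listed to show what else the samples held. Their counts are to be read against the 7.59% of all genes called higher in crypts and the 4.96% called higher in villi. Of 20 lymphocyte genes tested, Rgs1, a regulator of G proteins in activated lymphocytes, was the 1 called (2.17 ± 0.58, higher in crypts). It had 11.68, 9.85, 9.86 and 10.16 in crypts, against 8.13, 8.26 and 8.27 in villi, and lost its call without crypt array 1 (1.74, adjusted p = 0.0803) or villus array 2 (0.0583) or 3 (0.0620). The summed linear signal of the 17 lymphocyte genes measured on all 7 arrays was 28300, 10300, 12800 and 12900 in crypts, against 12100, 11600 and 14000 in villi, so crypt array 1 stood above the rest. Of 22 stromal and muscle genes on the array 15 were blank on all 7 arrays, and of 8 myeloid genes tested Lyz2 was the 1 called (1.75 ± 0.42, higher in crypts). Lyz2 is the close homologue of Lyz1, which a probe set may not separate. The part of these cells in the other results was not tested.

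Because NWD2 lowers methyl donors, calcium and vitamin D, genes of those pathways were listed as well. Of 19 folate and one-carbon genes, 7 were higher in crypts and 1 in villi (median 0.41, and 0.71 under the deposited scaling). Over all genes tested 7.59% and 4.96% were. The lean toward crypts was not particular to NWD2: of 18 genes, 9 were higher in crypts and 5 in villi on Ain76A (median 0.57). On NWD1 the counts were also 9 and 5 of 18 (median 0.48). Mthfd1, which interconverts folate forms, had 11.74, 10.99, 10.68 and 11.17 in crypts, against 10.44, 9.17 and 9.44 in villi (1.46 ± 0.27), a call lost with blanks set to the 1st percentile (adjusted p = 0.133). Shmt2, the mitochondrial serine hydroxymethyltransferase, differed by 1.69 ± 0.39, and Atic, of purine synthesis, by 1.65 ± 0.36. Without villus array 3 both missed the threshold (adjusted p = 0.0823 and 0.0503), and the list had 3 genes called without villus array 2 and 1 without villus array 3. Vdr, the vitamin D receptor, had 11.47, 11.65, 11.54 and 11.61 in crypts, against 11.46, 11.77 and 11.95 in villi (-0.16 ± 0.18, adjusted p = 0.617), and its groups overlapped.

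Among 24 genes that burn fatty acids or are targets of the PPAR receptors, 4 were higher in crypts and none in villi (median 0.22). Over all genes tested 7.59% and 4.96% were. Pdk4, a kinase that spares glucose when fat is burned, had 11.38, 11.69, 11.10 and 12.29 in crypts, against 8.37, 9.14 and 9.88 in villi (2.48 ± 0.54). Its groups were separate. Angptl4, an inhibitor of lipoprotein lipase, had 10.08, 10.65, 10.28 and 11.03 in crypts, against 8.64, 9.23 and 9.44 in villi (1.40 ± 0.42). That call was lost without crypt array 2 (adjusted p = 0.0519) or 4 (0.0870), or without villus array 1 (0.0810), 2 (0.0881) or 3 (0.0684), and with blanks set to the 1st percentile (0.194). On NWD1 and Ain76A Angptl4 differed by 0.14 and 0.07, and Pdk4 by 1.53 and 1.05. Neither gene passed the test of NWD2 against Ain76A (Angptl4 1.33 ± 0.58, adjusted p = 0.192, and Pdk4 1.44 ± 0.73, adjusted p = 0.269).

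The next question was whether the crypt to villus differences on NWD2 were of the same size as on the control diet. Genes called on both diets differed in the same direction on each, and the median difference was smaller in size on NWD2. Among 8340 genes tested on both diets, 1060 were called on NWD2 and 4477 on Ain76A. Of these 1040 were called the same way on both, 98.1% of the NWD2 calls and 23.2% of the Ain76A calls, and none the opposite way. The median size of the difference over these 8340 genes was 0.34 on NWD2 and 0.65 on Ain76A. On NWD1 it was 0.51, over the 8541 genes tested on NWD2 and NWD1. Median differences on NWD2 were smaller than on Ain76A for mitosis genes (1.91 against 3.25), ribosome biogenesis (1.09 against 2.18) and fat absorption (-0.48 against -1.68). For heat shock and immediate early genes they were 1.86 against 1.98, but gene by gene the median of NWD2 minus Ain76A was 0.70. For goblet cells they were -0.78 against -1.20, but gene by gene the median of NWD2 minus Ain76A was -0.23.

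**Figure D4:**
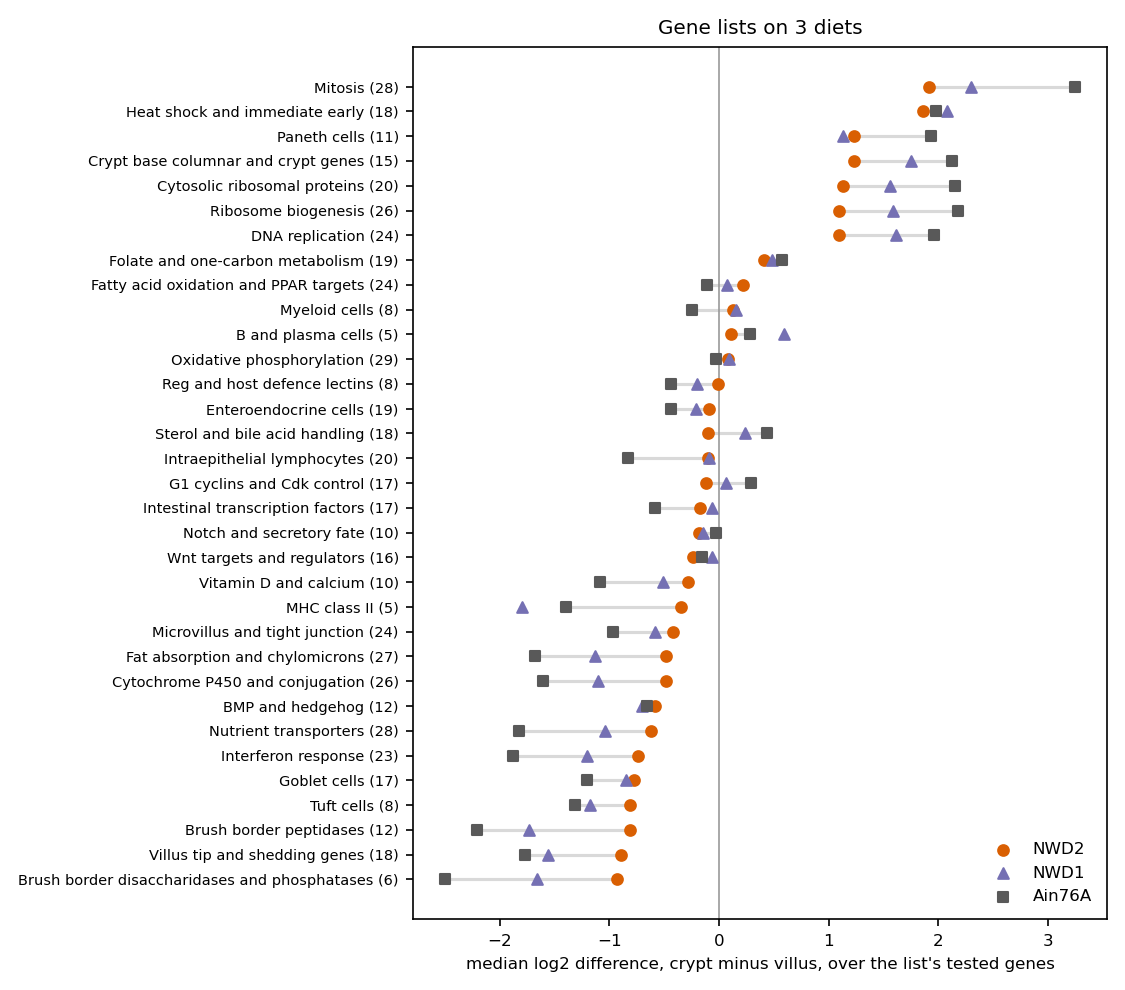
Median log2 difference, crypt minus villus (horizontal axis), of each gene list with at least 5 tested members on NWD2, NWD1 and Ain76A. The number of genes tested on NWD2 stands in parentheses, and grey lines join NWD2 and Ain76A. The NWD2 points lie nearer 0 than the Ain76A points for mitosis (1.91 against 3.25) and for the brush border lists, and at 1.86 against 1.98 for heat shock and immediate early genes.

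The test of the difference itself, crypt minus villus on NWD2 minus the same on Ain76A, passed for 49 of 8340 genes (0.588%). In all 49 the difference was smaller in size on NWD2: 39 were villus genes and 10 were crypt genes on Ain76A. The crypt to villus score was also less far apart on NWD2, with crypts at 0.98 to 2.19 and villi at -1.44 to 0.30. On Ain76A crypts lay at 2.16 to 2.92 and villi at -2.54 to -1.93. Whether the smaller differences came with the diet or with the position of the samples on that axis was not tested. In a fit on the 1-year arrays alone 1570 genes (18.8%) passed, of which 1555 were smaller on NWD2, and with the replicate block 958 and 985 passed in the 2 directions. Without NWD2 villus array 1 the test over all arrays called 1 gene, and the 1-year fit 303 and 190, a setting chosen after the data were seen. Over all arrays it called 1 without crypt array 3, 7 and 3 without crypt array 2, 10 and 3 without crypt array 4, 17 and 9 without villus array 2, and 307 and 178 without crypt array 1. The deposited scaling gave 155 and 19.

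Cidec, a lipid droplet protein, had the smallest adjusted p (0.00624). On NWD2 it had 8.60, 9.16, 9.53 and 10.03 in crypts, against 10.10, 10.49 and 10.16 in villi, a difference of -0.92. On Ain76A it had 7.02, 6.93, 7.33 and 6.96 in crypts, against 11.08, 11.10, 11.66 and 10.98 in villi, a difference of -4.14. Every NWD2 crypt array thus lay above every Ain76A crypt array, and every NWD2 villus array below every Ain76A villus array. Cidec kept its call without any 1 of the 7 NWD2 arrays. Krt20 differed by -1.16 on NWD2 and -2.59 on Ain76A (1.43 ± 0.29 between diets, adjusted p = 0.0155). Slc46a1, the intestinal folate transporter, differed by -0.86 on NWD2, with 9.53, 11.57, 12.43 and 11.62 in crypts, against 12.08, 12.10 and 12.27 in villi, and by -4.27 on Ain76A (3.41 ± 0.82 between diets, adjusted p = 0.0481). Slc46a1 kept its call under 1 of the 7 omissions of an NWD2 array.

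Other villus genes with a smaller difference on NWD2 were Slc6a8, the creatine transporter (1.88 ± 0.36 between diets), Pxdc1 (2.51 ± 0.48) and the sulfotransferase gene Gal3st2 (2.18 ± 0.45). Of crypt genes, Smc2, a subunit of condensin, had 10.57, 9.97, 9.81 and 9.83 in NWD2 crypts, against 9.34, 8.39 and 8.34 in NWD2 villi. In Ain76A crypts it had 11.18, 10.98, 10.84 and 11.04, against 7.38, 8.03, 7.59 and 7.92 in Ain76A villi (-1.93 ± 0.45 between diets, adjusted p = 0.0458). Every NWD2 crypt array thus lay below every Ain76A crypt array, and every NWD2 villus array above every Ain76A villus array. Pdcd4, an inhibitor of translation (-1.52 ± 0.29), Nup133, of the nuclear pore (-2.42 ± 0.49), Polr2h, an RNA polymerase subunit (-1.16 ± 0.27), and Umps, of pyrimidine synthesis (-1.57 ± 0.37), were crypt genes on Ain76A whose difference was smaller on NWD2. Except for Cidec, the genes named here for this test lost their call without crypt array 3 and without villus array 1, where the adjusted p lay between 0.0578 and 0.249. Smc2, Polr2h and Umps lost it also without crypt array 2 or 4, and Umps without villus array 2.

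**Figure D5:**
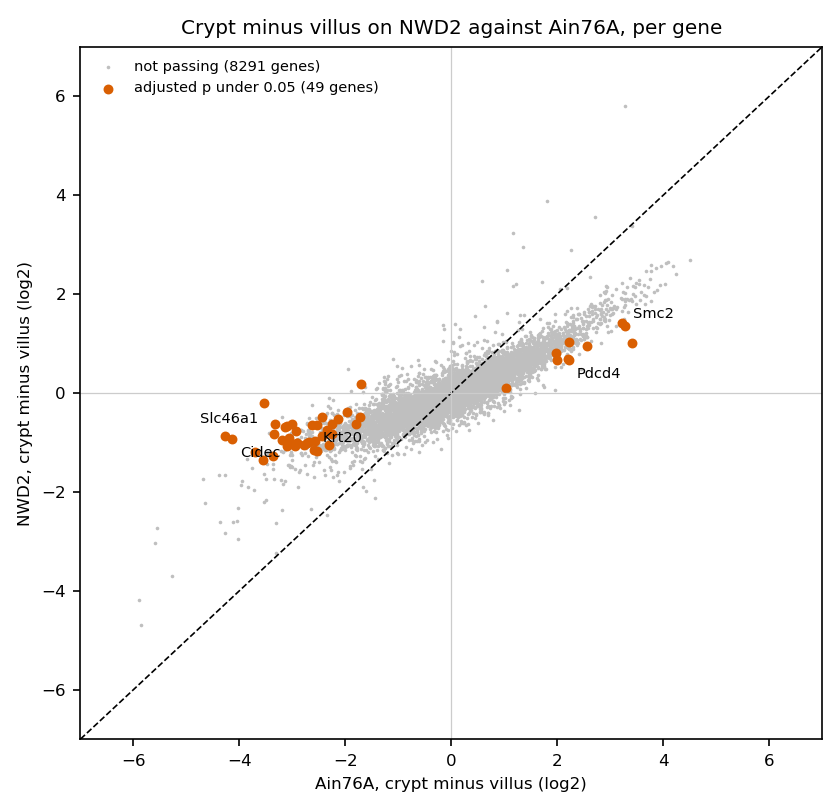
Log2 difference, crypt minus villus, on NWD2 (vertical axis) against Ain76A (horizontal axis) for 8340 genes. Coloured points are the 49 genes that passed the test between diets, and the dashed line marks equal differences. All 49 lie nearer 0 on NWD2 than on Ain76A.

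Against NWD1 no gene of 8541 passed (0%) with limma, and 215 had an unadjusted p under 0.05. None passed in the 1-year fit, with the replicate block, under the deposited scaling or without any 1 of the 7 arrays. Of the 1092 NWD2 calls among these genes 1072 were called the same way on NWD1 (98.2%), which is 29.6% of the 3626 NWD1 calls, and none the opposite way. Rab30, a small GTPase gene, had the smallest p (3.02 ± 0.80 between diets, unadjusted p = 0.000530, adjusted p = 0.997). It differed by -0.20 on NWD2 and -3.22 on NWD1. Cidec again differed less on NWD2 (-0.92 against -2.81 on NWD1, 1.90 ± 0.55 between diets) without passing. In the other direction Cttnbp2 had the smallest p (-2.07 ± 0.60 between diets, unadjusted p = 0.00190).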

How the data were processed

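Log2 signals of an Affymetrix mouse 3' expression array, as deposited by the authors, were used for 45101 probe sets on 47 arrays. GCOS made them, per the submitters' processing notes. Of all cells 55.3% were blank and stayed blank. Trimmed means of the arrays differed by up to 1.52 times, so arrays were quantile normalized on the 8350 probe sets measured everywhere, with monotone interpolation for the others. Controls were left out. Probe sets above the array median on at least 3 arrays were kept (30287), and of several for a gene the one with the highest mean stood for it, giving 13509 genes. Tests used limma 3.58.1 in R 4.3.3, with a one-way model over 12 groups, an intensity trend for the prior variance, and p-values adjusted by Benjamini-Hochberg within each comparison. The number of arrays limits the precision.

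Same-numbered NWD2 crypt and villus arrays deviated together from their group means (r = 0.45, 0.22 and 0.44 over 8492 genes). Differently numbered arrays ranged from -0.49 (crypt 3 with villus 1) to 0.38 (crypt 3 with villus 2), which is above 1 of the same-numbered values. These correlations thus do not settle whether the numbers mark pairs. A fit with the number as a block is given beside the counts and calls it changed. The NWD2 crypt array without a villus array of its number adds nothing to the NWD2 difference in that fit. The pairing comes from the numbers in the titles. Members, lists and tests were chosen with earlier results of these data known. Genes named in the text are the 12 largest called differences per direction without overlap, up to 5 called genes per list and direction, up to 3 others per list and a set of chosen genes. For the comparisons between diets they are the 6 smallest adjusted p per direction where called, and otherwise the 3 smallest p. The fits were tested on simulated data.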

Additional observations from a re-analysis of the deposited data

Results flagged for a closer look

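In 147 named genes the 4 NWD2 crypt arrays were searched for 1 array far from the other 3, and 8 were found. Chance alone gives about 1 in 20, so this count is near that of chance. The values below only describe the 8 arrays. Crypt array 3 stood apart in Egr1 (12.43, against 13.54, 13.39 and 13.56 on the others), in Lgr5 (7.93, against 8.48, 8.54 and 8.43) and in Ptprr, a receptor phosphatase gene higher in villi (9.34, against 8.32, 8.33 and 8.38). Crypt array 1 stood apart in Ccnd1 (11.80, against 10.53, 10.30 and 10.52), in Rgs1 (11.68, against 9.85, 9.86 and 10.16) and in the fatty acid binding protein gene Fabp2 (15.86, against 16.32, 16.29 and 16.29). Cdkn1a was high on crypt array 4 (12.24, against 11.65, 11.72 and 11.75) and Chga low on crypt array 2 (10.76, against 11.08, 11.13 and 11.07).

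The test of crypt minus villus on NWD2 minus the same on Ain76A (limma, Benjamini-Hochberg) passed for the following named genes. Among villus genes the values were 3.22 for Cidec, 2.51 for Pxdc1, 1.88 for Slc6a8, 1.43 for Krt20, 2.44 for 2010003K11Rik and 2.18 for Gal3st2. They were 3.41 for Slc46a1, 1.26 for Eps8 and 3.34 for Rab30, with adjusted p-values of 0.0481, 0.0481 and 0.0489. Among crypt genes the values were -1.52 for Pdcd4, -1.62 for 2410006H16Rik, -2.42 for Nup133, -1.93 for Smc2, -1.16 for Polr2h and -1.57 for Umps.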

How the results depend on the processing

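The 670 calls toward crypts and 438 toward villi became 1238 and 1188 with the replicate block, in which same-numbered arrays are paired, 2392 and 2854 with array weights, and 406 and 200 at a log2 difference of at least 1. Leaving out 1 NWD2 array gave between 168 and 976 genes higher in crypts and between 63 and 780 higher in villi. Of 108 named called genes none reversed under any setting, 104 kept their call with the replicate block, 97 under the deposited scaling, 94 with blanks set to the 1st percentile and 51 under every omission of an array. The 39 and 10 genes that differed from Ain76A became 155 and 19 under the deposited scaling, 784 and 786 in the fit on the 1-year arrays, and 958 and 985 with the replicate block. Leaving out 1 NWD2 array gave 1 to 307 and 0 to 178. The 1-year fit gave 303 and 190 without villus array 1, and 397 and 278 without crypt array 3, settings chosen after seeing the data. The cause of these shifts was not tested. Against NWD1 no gene was called under the deposited scaling, in the 1-year fits, with the replicate block or without any 1 NWD2 array, and the other settings were not run for that comparison. Blank cells limit what could be tested: 8827 of 13509 genes held enough values.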

Other observations

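Some genes could not be tested because 1 tissue held blanks. In all, 45 genes were measured on the 4 NWD2 crypt arrays and blank on the 3 villus arrays, and 40 were measured on the 3 villus arrays and blank on the 4 crypt arrays. Ephb4, an ephrin receptor, averaged 8.88 ± 0.27 (SD, n = 4) on the log2 scale in crypts and was blank in villi. The claudin gene Cldn4 averaged 10.28 ± 0.98 (SD, n = 3) in villi and was blank in crypts. Of transcription factors of the crypt, Ascl2 was measured on 4 crypt and 2 villus arrays, Myc on 4 and 1, and Sox9 on 4 and 1. A blank gives no level, and no source used here says what made a cell blank.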
